A study of Orestias ascotanensis with 42 samples.

Results

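The miR-17 to miR-92 miRNAs and their paralogues were followed through muscle, skin and gills of *Orestias ascotanensis*, a killifish of a high-altitude salt pan. Members were chosen by name alone: every name of miR-17, miR-18, miR-19, miR-20, miR-25, miR-92, miR-93, miR-106 or miR-363, with any letter or arm suffix, once the species prefix was removed. The rule gave 59 of the 1342 names in the tables, 35 for the guide arm, the strand that is usually loaded into the silencing complex, and 24 for the passenger arm. At least 1 read was found for 45 of them, and 14 had none in any library.

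In mammals these miRNAs are made from 3 gene clusters that arose by duplication. The best known carries miR-17, miR-18a, miR-19a, miR-20a, miR-19b and miR-92a on a single transcript, the next carries miR-106b, miR-93 and miR-25, and the last carries miR-106a, miR-18b, miR-20b, further copies of miR-19b and miR-92a, and miR-363. The first is induced by the transcription factor MYC in mammalian cells and is known for driving cell proliferation and for its overexpression in lymphomas. A miRNA finds its targets mainly through its seed, a short stretch near its 5′ end, and these miRNAs fall into 4 seed families. The miR-17 family (miR-17, miR-20, miR-93 and miR-106) is known in mammals for repressing cell-cycle inhibitors and E2F factors. The miR-19 family is known for its part in the lymphoma-promoting activity of the first cluster in mouse. The miR-92 family (miR-25, miR-92 and miR-363) includes miR-92a, which restrains blood vessel growth in mouse, and miR-18 has a seed close to that of miR-17.

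The groups were muscle, skin and gills, each in summer and in winter, with 7 libraries a group. The 42 libraries come from 14 wild-caught adult fish, so the 3 tissues are paired by fish, while the seasons hold different fish. The labels name no treatment other than season and no engineered allele, and no animals were pooled. Season was taken from the treatment label, because all 42 titles carry the word summer; if the label were swapped, every seasonal direction below would turn. Fish were netted in July and in January, and season and collection cannot be told apart.

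Summed counts over names ran from 18314928 to 57710548 in muscle, from 11091382 to 36093916 in skin and from 598084 to 27067509 in gills. The lowest gill sums were 598084 in summer fish 4 and 1196380 in winter fish 2. The miR-10 family took 89.9% ± 2.59 of muscle reads, 61.0% ± 9.27 of skin reads and 23.7% ± 11.8 of gill reads (SD, n = 14 each). Levels are therefore given as CPM, read counts scaled to a common library size, after trimmed-mean (TMM) scaling, which gives less weight to such a dominant family. With library totals alone, the median log2 change over all names shifted by -3.38 for muscle minus gills, -2.29 for muscle minus skin and -1.08 for skin minus gills. The labelled tissues carried their markers: the summed level of 4 skeletal muscle miRNAs had a median of 19120 CPM in muscle, 2557 CPM in skin and 163 CPM in gills. Of these only miR-499 had a higher median in skin (125 CPM) than in muscle (105 CPM). It was lower in muscle than in skin in 9 of 14 fish. The summed level of 7 epithelial miRNA names had a median of 371 CPM in muscle, 8503 CPM in skin and 14020 CPM in gills. Among them miR-200a and miR-141 had the same counts, so these reads enter the sum more than once. Each of these 2 names had a median of 63.7 CPM in muscle, 961 CPM in skin and 3516 CPM in gills. These are bulk tissues, where fewer cells of a type and less RNA per cell cannot be told apart.

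Reads that match several names count under each of them, so the 40 members with at least 42 reads amounted to 23 distinct read profiles, names whose counts matched within 5%. Names with fewer reads were given no profile. Counting all names, with or without reads, the miR-17 family held 22 names, the miR-18 family 8, the miR-19 family 13 and the miR-92 family 16. Their names with at least 42 reads formed 9, 2, 7 and 5 profiles. Each number is represented by its guide-arm name with the most reads. These were miR-92 (832117 reads over all libraries), miR-25 (383637), miR-19b (210527), miR-17 (86051), miR-20 (35121), miR-106 (20997), miR-93 (16631) and miR-18 (15297). Close relatives, such as miR-17 and miR-20 or miR-106 and miR-20b, can be counted from the same reads, so their separate values are uncertain. For miR-363 only the passenger name miR-363-5p was listed, with 0 reads, and its guide arm is not analysed here.

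Guide arms held most reads in the 3 families with passenger names. In the miR-92 family, miR-92 had 832117 reads, while 8 of the 10 passenger names had none and miR-25-3-5p and miR-25-5p had 976 and 3 reads. In the miR-17 family the most abundant passenger name, miR-20a-2-3p, had 465 reads, and the passenger strand of miR-17 itself, miR-17-3p, had 16. In the miR-19 family miR-19a-5p had 1040 reads. The miR-18 family held no passenger name.

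The make-up of the member reads by tissue is given as mean shares, without a test. Among the summed reads of the 8 representatives, miR-92 made up 27.9% ± 12.9 in muscle, 48.0% ± 14.0 in skin and 52.0% ± 14.2 in gills (SD, n = 14 each). For miR-25 the share was 33.4% ± 7.80 in muscle, 25.3% ± 6.74 in skin and 25.9% ± 10.4 in gills. For miR-19b it was 23.1% ± 9.48 in muscle, 16.7% ± 5.01 in skin and 11.9% ± 4.37 in gills. For miR-17 it was 7.97% ± 3.20 in muscle, 4.98% ± 2.37 in skin and 4.94% ± 2.61 in gills. In summer muscle the mean share was 38.4% for miR-25 and 23.6% for miR-92, while in winter muscle it was 28.4% for miR-25 and 32.2% for miR-92. In skin and gills miR-92 had the higher mean share. A read that matches 2 of these names enters the sum more than once.

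**Figure D1:**
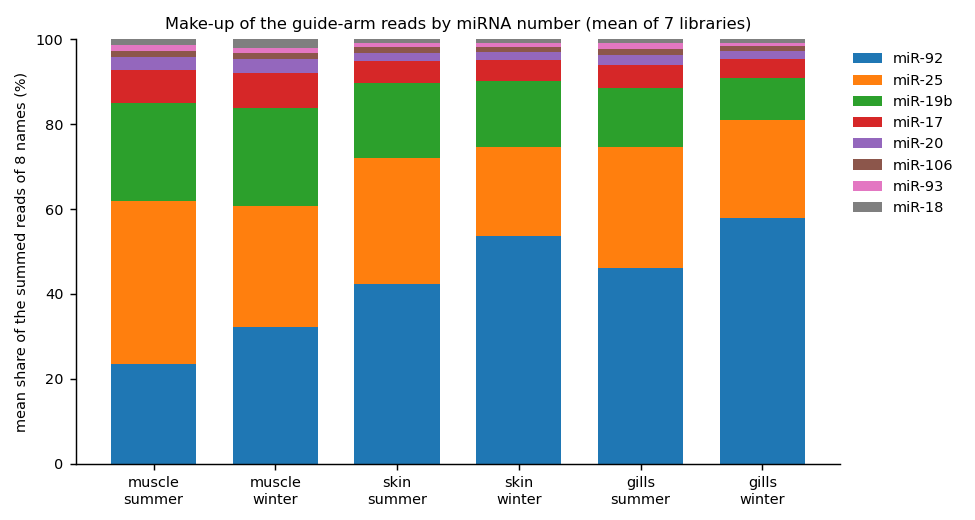
Stacked bars give the mean share (%) of each of 8 guide-arm names in their summed reads, with 7 libraries a bar, for muscle, skin and gills in summer and winter. The miR-92 share is smallest in muscle, at 23.6% in summer and 32.2% in winter, and reaches 46.2% in summer gills and 57.9% in winter gills.

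The question of the tissue comparison was which members differ in level between the 3 tissues of the same fish. Of the 59 members, 38 passed the filter on low counts and were tested with edgeR among 525 names. The main edgeR fit did not use the pairing by fish, which was an alternative. In muscle against gills 1 rose and 26 fell (27 of 38, 71.1%, adjusted p under 0.05), beside 76.6% of all 525 names called in either direction, 37.5% higher and 39% lower. The names that fell include miR-20b, miR-20b-5p, miR-19a-5p, miR-19d-5p, miR-20a-2-3p and miR-25-3-5p. Within muscle alone these did not pass the filter, so they enter the count as a description. The median log2 change was -0.74 over the members and -0.10 over all names. In muscle against skin 1 rose and 12 fell (34.2%), beside 67% of all names, with medians of -0.34 and -0.11. In skin against gills 0 rose and 11 fell (28.9%), beside 54.5% of all names, with medians of -0.59 and -0.003. By profiles, 1 rose and 15 fell of 21 in muscle against gills, 1 rose and 9 fell in muscle against skin, and 4 fell in skin against gills. With TMM scaling and all libraries, the share of members called was below that of all names in each of the 3 comparisons, and all but miR-18b of the members called were lower. That order turned without the low-total gill libraries, with 36 of 38 members called (94.7%) beside 80.7% of all names in muscle against gills. It turned as well with library totals only, which called all 38 members beside 93.3% of all names. Other settings lowered the count in muscle against gills. DESeq2 called 19 of 38 (50%, beside 75.6% of all names) and its size factors gave 19 (50%, beside 74.7%). Totals without the miR-10 family gave 18 of 36 (50%, beside 74.4%), and fish as a replicate block 21 of 38 (55.3%, beside 77%). Leaving out 1 fish gave 21 to 36. In skin against gills the count rested on single fish and on the scaling as well. It was 7 without summer fish 2, 22 without summer fish 4, 19 without winter fish 4 and 22 without winter fish 5. It was 25 (65.8%) without the low-total gill libraries, beside 59.8% of all names, and 2 (5.56%) with totals that leave out the miR-10 family, beside 50% of all names. In muscle against skin it was 20 without summer fish 2 and 21 without summer fish 4.

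**Figure D2:**
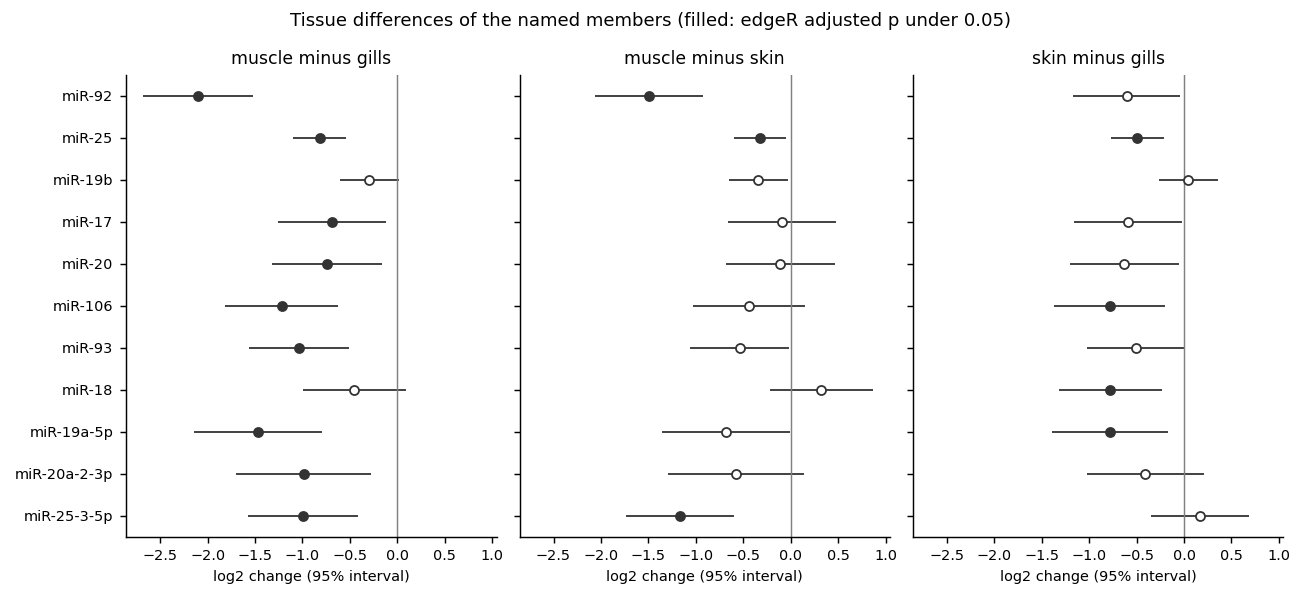
Points give the log2 change of 11 named members for muscle minus gills, muscle minus skin and skin minus gills, with 95% intervals from edgeR over 42 libraries; filled points have an adjusted p under 0.05. In muscle against gills miR-92 lies farthest to the left at -2.10, and in muscle against skin at -1.49.

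In the miR-92 family the 6 guide names, which form 4 read profiles, all fell in muscle against gills and in muscle against skin. Their median log2 changes were -1.59 and -1.09. Of all names, 76.6% were called in either direction (39% lower) against gills and 67% (34.7% lower) against skin. The level of miR-92 was 52.4 CPM at the lowest, 208 at the median and 955 at the highest in muscle, 228, 662 and 1337 CPM in skin, and 163, 1123 and 1742 CPM in gills. The ranges overlapped, but miR-92 was lower in muscle than in gills in 13 of 14 fish and lower in muscle than in skin in 13 of 14 fish. By edgeR it fell in muscle by 2.10 ± 0.30 on the log2 scale against gills (SE, 4.28-fold, adjusted p = 2.77e-08) and by 1.49 ± 0.29 against skin (2.82-fold, adjusted p = 1.82e-05). Both calls held under the other settings tried and with each fish left out. In skin against gills the log2 change was -0.61 ± 0.29 (edgeR adjusted p = 0.0696), lower in 12 of 14 fish. It passed the threshold without summer fish 2 or summer fish 4, at -0.75 and -0.74 (edgeR adjusted p = 0.0275 and 0.0224).

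A further name of this family with a separate read profile, miR-92-3p (11488 reads), fell too. Whether miR-92-3p shares reads with miR-92 was not tested. Its level was 2.20, 6.85 and 12.3 CPM in muscle (lowest, median, highest), 7.48, 10.04 and 16.0 CPM in skin, and 10.2, 14.25 and 19.5 CPM in gills. The log2 change was -1.10 ± 0.20 for muscle minus gills (edgeR adjusted p = 3.50e-06) and -0.71 ± 0.20 for muscle minus skin (edgeR adjusted p = 0.00164). The name miR-92a, 610590 reads, is not independent of miR-92, and its changes were -2.08 and -1.47.

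Of the same seed, miR-25 belongs to the miR-106b cluster in mammals and showed a smaller difference. Its level was 139, 248 and 453 CPM in muscle (lowest, median, highest), 266, 342 and 447 CPM in skin, and 299, 457 and 811 CPM in gills. All 14 fish had less miR-25 in muscle than in gills, and 13 of 14 had less in skin than in gills, although the ranges of the tissues overlapped. The log2 change was -0.82 ± 0.14 for muscle minus gills (edgeR adjusted p = 1.94e-06) and -0.49 ± 0.14 for skin minus gills (edgeR adjusted p = 0.00282), and both held under the other settings tried and with each fish left out. For muscle minus skin it was -0.32 ± 0.14 (edgeR adjusted p = 0.0412), lower in 12 of 14 fish. That last call was lost with DESeq2 and its size factors (highest adjusted p = 0.162) and without summer fish 5, winter fish 4 or winter fish 7, at -0.30, -0.30 and -0.28. The passenger name miR-25-3-5p had 1 to 12 reads per muscle library, with a median level of 0.440 CPM in muscle, 1.29 CPM in skin and 0.999 CPM in gills. It fell in muscle against gills, by 0.99 ± 0.30 on the log2 scale (edgeR adjusted p = 0.00267), and against skin, by 1.16 ± 0.29 (edgeR adjusted p = 0.000537). Within single tissues it passed the filter on low counts in gills and skin but not in muscle, so these p-values are a description.

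In the miR-17 family 15 of 16 guide names tested fell in muscle against gills, beside 76.6% of all names called in either direction and 39% lower. Among the 15, miR-20b and miR-20b-5p did not pass the filter on low counts within any single tissue, so their calls are a description. The 15 names share the read profiles of miR-17, miR-20, miR-93, miR-106, miR-106a-5p and miR-20b-5p, so names of 1 profile are not independent. Of these, miR-93 and miR-106 were the representatives whose call in muscle against gills held under the other settings tried and with each fish left out. The size did depend on the setting: the log2 change ran from -4.60 to -0.98 for miR-106 and from -4.39 to -0.82 for miR-93. The level of miR-106 was 4.14, 10.5 and 19.3 CPM in muscle (lowest, median, highest), 6.98, 14.6 and 26.5 CPM in skin, and 0, 30.9 and 42.0 CPM in gills. The value of 0 in gills is summer fish 4, the library with the lowest sum, where 3 reads, the limit a count of 0 allows, correspond to 2.72 CPM. That limit covers counting error only. The muscle range overlapped the low gill libraries, and 12 of 14 fish had less miR-106 in muscle than in gills. By edgeR it fell by 1.22 ± 0.30 on the log2 scale in muscle against gills (adjusted p = 0.000386). Likewise miR-93 fell by 1.04 ± 0.27 (edgeR adjusted p = 0.000602), lower in muscle in 11 of 14 fish. Its level was 1.16, 9.19 and 16.5 CPM in muscle, 7.49, 11.9 and 29.3 CPM in skin, and 5.43, 21.5 and 34.2 CPM in gills.

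The name-giving member, miR-17, and miR-20 passed the threshold for muscle against gills less firmly. The level of miR-17 was 18.7, 59.2 and 120 CPM in muscle (lowest, median, highest), 33.4, 66.0 and 125 CPM in skin, and 3.63, 125 and 158 CPM in gills. Gill libraries spread widest and overlapped the other tissues fully, and 9 of 14 fish had less miR-17 in muscle than in gills. The log2 change was -0.69 ± 0.29 (edgeR adjusted p = 0.0308), but -0.56 with fish as a replicate block (edgeR adjusted p = 0.112). The call was lost in 5 of 9 other settings, where adjusted p reached 0.127. It was also lost without summer fish 3 at -0.65, winter fish 3 at -0.59, winter fish 6 at -0.63 or winter fish 7 at -0.58. The level of miR-20 was 4.78, 22.9 and 50.8 CPM in muscle, 12.2, 26.8 and 55.1 CPM in skin, and 6.36, 49.4 and 72.3 CPM in gills. Its log2 change was -0.74 ± 0.29 for muscle minus gills (edgeR adjusted p = 0.0225), and -0.66 with the replicate block (edgeR adjusted p = 0.0715). Its call was lost in 5 of 9 other settings, where adjusted p reached 0.0898, and without winter fish 7 at -0.66.

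Between muscle and skin, none of the 4 representatives of the miR-17 family passed the threshold: the edgeR log2 changes were -0.09 ± 0.29 for miR-17, -0.11 ± 0.29 for miR-20, -0.53 ± 0.27 for miR-93 and -0.44 ± 0.30 for miR-106 (SE). The 95% interval for miR-17 ran from -0.66 to 0.47, and differences within it are compatible with these data. Without summer fish 4, miR-106 passed at -0.57 (edgeR adjusted p = 0.0262), and miR-93 passed when any of 6 fish was left out. In skin against gills miR-106 fell by 0.78 ± 0.30 (edgeR adjusted p = 0.0233). That call was lost with the replicate block at -0.73 (edgeR adjusted p = 0.0534) and, over 9 settings, at adjusted p up to 0.114. It was lost as well without summer fish 2 at -0.67, winter fish 6 at -0.73 or winter fish 7 at -0.68. The changes of miR-17, miR-20 and miR-93 were -0.59, -0.63 and -0.50 there (edgeR adjusted p = 0.0787, 0.0667 and 0.103). Those of miR-17 and miR-20 passed without summer fish 4 (-0.59 and -0.61), winter fish 4 (-0.64 and -0.66) or winter fish 5 (-0.77 and -0.82), and that of miR-93 without winter fish 5 (-0.69). The passenger name miR-20a-2-3p fell in muscle against gills by 0.99 ± 0.36 (edgeR adjusted p = 0.0136), with medians of 0.206 CPM in muscle, 0.410 CPM in skin and 0.552 CPM in gills. Within single tissues it passed the filter on low counts in gills only, where it is highest, so its p-value is a description.

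The miR-19 family showed less of a tissue difference in its main name. The level of miR-19b was 88.7, 173 and 307 CPM in muscle (lowest, median, highest), 142, 223 and 320 CPM in skin, and 146, 216 and 325 CPM in gills, with ranges that overlapped almost entirely. Its edgeR log2 change was -0.30 ± 0.16 for muscle minus gills (95% interval from -0.61 to 0.01), -0.34 ± 0.16 for muscle minus skin (from -0.65 to -0.03, adjusted p = 0.0538) and 0.04 ± 0.16 for skin minus gills (from -0.26 to 0.35). It was lower in muscle than in gills in 8 of 14 fish. The muscle values sat near the threshold: leaving out 1 fish brought them past it in 8 of 14 cases against gills and in 9 of 14 against skin. Both miR-19a profiles were lower in muscle than in skin, by 0.57 ± 0.22 for miR-19a and by 0.57 ± 0.22 for miR-19a-3p (edgeR adjusted p = 0.0223 and 0.0192). Against gills the muscle changes were -0.46 ± 0.22 and -0.49 ± 0.22 (edgeR adjusted p = 0.0541 and 0.0375). The totals of the 2 profiles are close, 45907 and 49489 reads, so they may share reads and are not taken as separate results. Both names were chosen after their values were seen.

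Of the 3 passenger names of the miR-19 family that were tested, miR-19a-5p and miR-19d-5p differed more, at far lower counts, while miR-19b-5p had a log2 change of 0.20 ± 0.36 for muscle minus gills. The level of miR-19a-5p was 0 to 1.76 CPM in muscle, 0.338 to 1.27 CPM in skin and 0.908 to 1.57 CPM in gills. It fell by 1.46 ± 0.34 in muscle against gills (edgeR adjusted p = 0.000197) and by 0.78 ± 0.31 in skin against gills (edgeR adjusted p = 0.0305). Within single tissues miR-19a-5p passed the filter on low counts in gills and skin but not in muscle, so its muscle p-value is a description. Skin was lower than gills in 14 of 14 fish. The skin call was lost without summer fish 5, summer fish 7, winter fish 1 or winter fish 6, where adjusted p reached 0.0766, and over 9 other settings it reached 0.0853. By counts, miR-19d-5p had 2 reads in all 14 muscle libraries, 41 in skin and 91 in gills. Its edgeR log2 change was -3.94 ± 0.74 for muscle minus gills (adjusted p = 1.05e-05), a value that depends on how counts near 0 are handled. No muscle library could meet the filter on low counts for miR-19d-5p, and the name was chosen after its values were seen. This p-value is therefore a description.

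The miR-18 family held 2 read profiles, miR-18 and miR-18b. The level of miR-18 was 5.73, 12.1 and 38.7 CPM in muscle (lowest, median, highest), 5.21, 9.72 and 16.9 CPM in skin, and 1.82, 19.6 and 29.4 CPM in gills. In skin against gills miR-18 fell by 0.78 ± 0.28 in skin against gills (edgeR adjusted p = 0.0155), lower in 10 of 14 fish. That call was lost without summer fish 2, at -0.66 (adjusted p = 0.0506), and in 2 of 9 other settings, where adjusted p reached 0.0979. In muscle the log2 change was -0.45 ± 0.28 against gills and 0.32 ± 0.28 against skin, neither past the threshold in edgeR. Without summer fish 4 or winter fish 4 the muscle and gills change passed, at -0.54 and -0.73.

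The other profile is miR-18b, a member of the miR-106a cluster in mammals, with 310 reads in all; it was named after its values were seen, so its p-values are a description. It had 4 to 27 reads in every muscle library, 1 to 10 in skin and 0 to 26 in gills. Its level was 0.461, 1.08 and 1.98 CPM in muscle, 0.0345, 0.162 and 0.386 CPM in skin, and 0, 0.210 and 0.481 CPM in gills. The muscle and skin ranges did not overlap, and muscle was higher than gills in 14 of 14 fish. It rose in muscle by 2.23 ± 0.28 against gills (4.69-fold, edgeR adjusted p = 2.20e-09) and by 2.47 ± 0.28 against skin (5.55-fold, edgeR adjusted p = 1.73e-10). It was the member counted above as higher in muscle. With library totals only, the direction against gills flipped to -1.17 and the change against skin was 0.25, while DESeq2 size factors and totals without the miR-10 family gave 2.43 and 2.22 against gills. Its reads were few beside the 15297 of miR-18, so the name adds little to the level of the family.

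**Figure D3:**
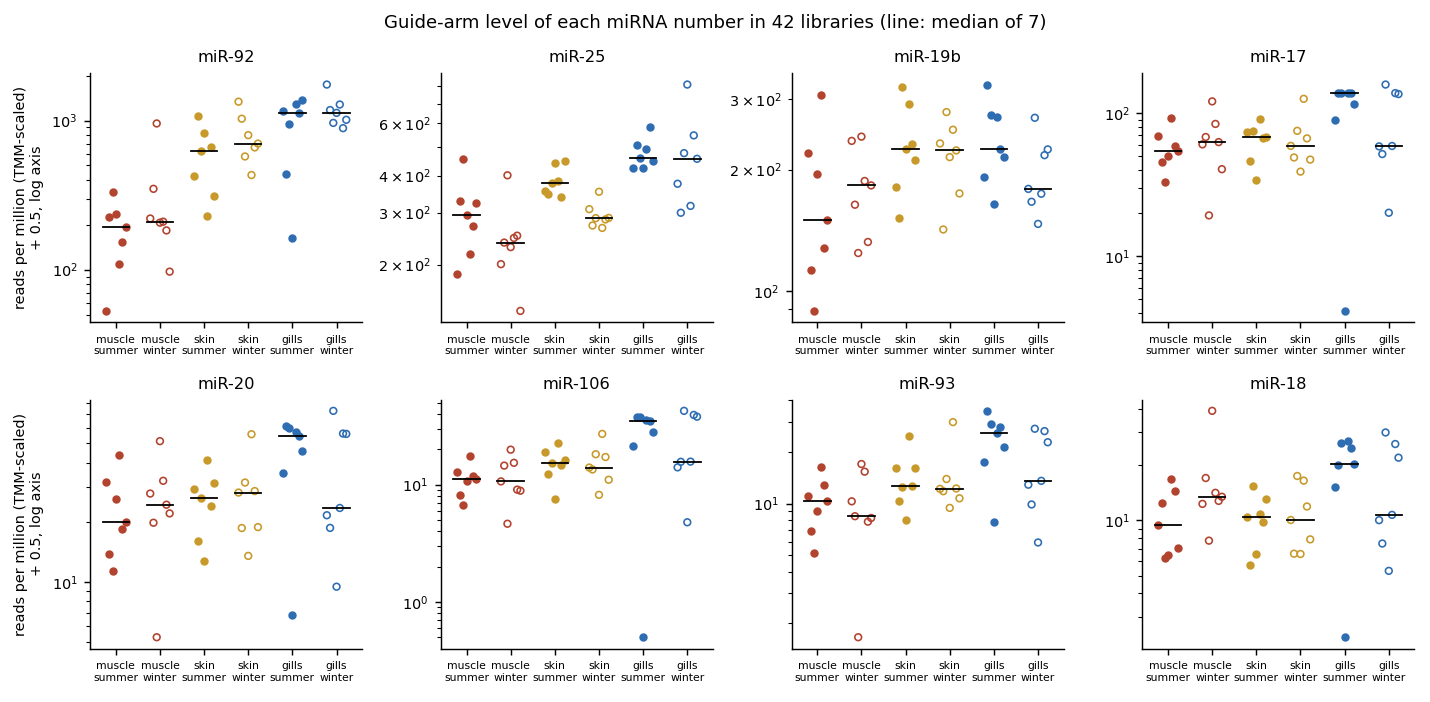
Each panel shows a guide-arm name in the 42 libraries as TMM-scaled CPM plus 0.5 on a log axis, with replicates 1 to 7 from left to right in a group, filled points for summer, open points for winter and a line at the median of 7. The gill library of summer fish 4 is the lowest gill point for miR-17 (3.63 CPM), miR-20 (6.36 CPM), miR-106 (0) and miR-18 (1.82 CPM).

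Ratios of 2 members within a library do not depend on any scaling. For miR-25 over miR-92 the mean log2 ratio was 0.36 ± 0.72 in muscle, -0.90 ± 0.81 in skin and -1.03 ± 0.95 in gills (SD, n = 14 each). Muscle exceeded gills by 1.39 ± 0.31 (SE, 2.62-fold), higher in 12 of 14 fish, and skin by 1.27 ± 0.20 (2.41-fold), higher in 13 of 14 fish. By two-sided exact sign-change tests within fish, adjusted over 24 tests, p was 0.0161 against gills and 0.00879 against skin, and both calls held with each fish left out.

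For miR-92 over miR-17, neighbours on a single transcript in mammals, the mean log2 ratio was 1.84 ± 1.45 in muscle, 3.35 ± 1.10 in skin and 3.66 ± 1.19 in gills (SD, n = 14 each). The difference was -1.82 ± 0.57 for muscle minus gills, higher in muscle in 3 of 14 fish, and -1.50 ± 0.44 for muscle minus skin, higher in muscle in 2 of 14 fish (SE). The exact tests gave adjusted p = 0.0440 and 0.0432, raw p = 0.00916 and 0.00720. With the seasonal tests of the same family run as a replicate block, both adjusted p-values were 0.0549. These calls were not firm: leaving out a single fish ended each of them in 11 of 14 cases, with raw p up to 0.0183 and 0.0144 and adjusted p up to 0.0879 and 0.0864. Without the low-total gill libraries the muscle and gills difference was -1.68 (exact adjusted p = 0.102). Ratios of miR-18 and of miR-19b over miR-17 passed in none of their tissue tests (lowest exact adjusted p = 0.0728).

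**Figure D4:**
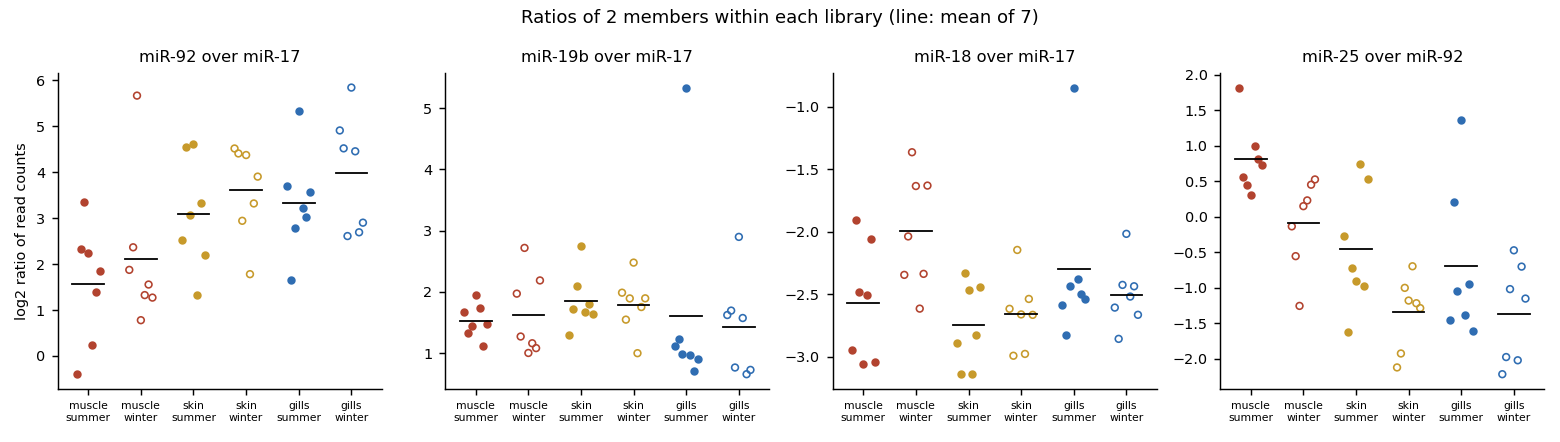
Each panel shows the log2 ratio of 2 read counts (each plus 0.5) within a library, for muscle, skin and gills, with filled points for summer, open points for winter and a line at the mean of 7. For miR-25 over miR-92 all 7 summer muscle libraries lie above 0, at 0.30 to 1.82.

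Season was compared within each tissue, summer minus winter, with 7 fish against 7. In muscle 0 of 29 members tested were called, beside 13.8% of the names tested (6.56% higher and 7.26% lower); 3 members had an unadjusted p under 0.05 in edgeR. In skin 0 of 32 were called, beside 0.629% of 477 names (1.68% with the replicate block), with 2 at an unadjusted p under 0.05. In gills 0 of 33 were called, beside 0.217% of 460 names (0.435% with the replicate block), with 1 at an unadjusted p under 0.05. DESeq2 called 2 members in skin, both names of the miR-25 profile, beside 1.47% of all names. It called 0 in muscle, beside 17.3%, and 0 in gills, beside 1.3%.

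The lowest unadjusted p of the members in muscle belonged to miR-92 and to miR-92a, which is not independent of it (log2 change -1.02, edgeR adjusted p = 0.126). The level of miR-92 was 52.4, 194 and 334 CPM in summer muscle (lowest, median, highest) and 96.5, 209 and 955 CPM in winter muscle, where fish 3 held the highest value. The ranges overlapped, and the edgeR log2 change was -0.97 ± 0.43 (unadjusted p = 0.0367, adjusted p = 0.155). Without winter fish 3 it was -0.33 (edgeR adjusted p = 0.449). With totals that leave out the miR-10 family it was -1.20 (edgeR adjusted p = 0.0222), and 9 members were called lower, 6 names of the miR-18 profile and 3 of miR-92 and miR-92a. That is 31% of the members, beside 33.3% of all names called with that scaling. That scaling shifted the median of all names by -0.41. The summed level of the white blood cell markers in muscle was 17.3, 26.3 and 73.6 CPM in summer and 24.7, 52.9 and 240 CPM in winter, with miR-223 at 0 among the 4. Of these, miR-142 fell by 1.92 ± 0.54 (edgeR adjusted p = 0.0236). The change was -0.68 ± 0.53 for miR-150 and 0.10 ± 0.31 for miR-155 (edgeR adjusted p = 0.408 and 0.849). Of the red blood cell markers miR-451 fell by 0.62 ± 0.20 (edgeR adjusted p = 0.0447), while miR-144 changed by -0.21 ± 0.41 (edgeR adjusted p = 0.795). Both calls were lost with the replicate block, at -1.45 for miR-142 (edgeR adjusted p = 0.0529) and -0.61 for miR-451 (edgeR adjusted p = 0.0745), and that of miR-451 with DESeq2 size factors (adjusted p = 0.0626). Their part in the miR-92 values was not tested.

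In skin miR-25 was 338, 377 and 447 CPM in summer and 266, 287 and 352 CPM in winter (lowest, median, highest), with the highest winter library above the lowest summer one. The log2 change was 0.41 ± 0.14 (edgeR unadjusted p = 0.00934, adjusted p = 0.321). DESeq2 gave 0.41 with adjusted p = 0.0363, and across the other settings adjusted p ran up to 0.412. In muscle the change of miR-25 was 0.15 ± 0.22 and in gills -0.07 ± 0.20 (edgeR, SE), and the difference between skin and gills was 0.36 ± 0.28 (edgeR adjusted p = 0.974).

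The ratio of miR-25 over miR-92 was higher in summer than in winter muscle, with ranges that overlapped (0.30 to 1.82 in summer and -1.255 to 0.53 in winter). It averaged 0.81 ± 0.50 in summer and -0.08 ± 0.63 in winter (SD, n = 7 each), a difference of 0.89 ± 0.31 on the log2 scale (SE, 1.86-fold). The two-sided exact permutation test gave p = 0.00466, adjusted over 24 tests p = 0.0373. With batch numbers as a replicate block, all 7 pairs were higher in summer, but the exact test of 7 pairs cannot go below 0.0156 and gave an adjusted p = 0.0624. Leaving out 1 fish ended the call in 7 of 14 cases (exact adjusted p from 0.0233 to 0.085). In skin the ratio averaged -0.46 ± 0.85 in summer and -1.35 ± 0.50 in winter (SD, n = 7 each), a difference of 0.89 ± 0.37 (exact adjusted p = 0.109), and in gills the difference was 0.67 ± 0.49 (exact adjusted p = 0.441). With the replicate block all 7 skin pairs were higher in summer too, with the same exact adjusted p of 0.0624 as in muscle. In gills 4 of 7 pairs were higher (exact adjusted p = 0.3125).

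An interaction term over the 42 libraries asked whether summer and winter differed more in one tissue than in another. For skin against gills 2 of 38 members were called, beside 0.762% of 525 names, and for muscle against gills 2, beside 1.9% of them (1.52% higher). For muscle against skin 0 were called, beside 2.29%, with 1 at an unadjusted p under 0.05 in edgeR and 0 called by DESeq2 (beside 2.72%). The called names were miR-20b and miR-20b-5p in both cases, which share 1 read profile and count as 1 molecule; they were singled out after their values were seen. The filter on low counts was met by miR-20b in 6 libraries of summer gills, the group where it is high, against 1 to 3 in winter gills and the skin groups; its p-values are therefore a description and support nothing further.

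In mammals miR-20b is the miR-20 copy of the miR-106a cluster. In summer gills it had 43, 40, 148, 0, 157, 184 and 119 reads in fish 1 to 7, and in winter gills 1, 0, 9, 0, 2, 0 and 1 reads. The summer fish at 0 is fish 4, whose library allows up to 2.72 CPM at a count of 0, a limit within the 1.21 to 2.84 CPM of the other 6. Winter gills had at most 0.191 CPM by counts, so that apart from summer fish 4 the counted levels of the seasons did not overlap. The winter libraries at 0 reads allow up to 0.721 CPM in fish 2, 0.267 CPM in fish 4 and 0.229 CPM in fish 6. Read counts compare unlike depths, with summed counts of 1196380 to 12778743 in winter gills and, apart from fish 4, 8358684 to 27067509 in summer gills. In skin it had 0.226, 0.382 and 0.677 CPM in summer (lowest, median, highest) and 0.0386, 0.345 and 0.473 CPM in winter, and in muscle no library had more than 4 reads.

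**Figure D5:**
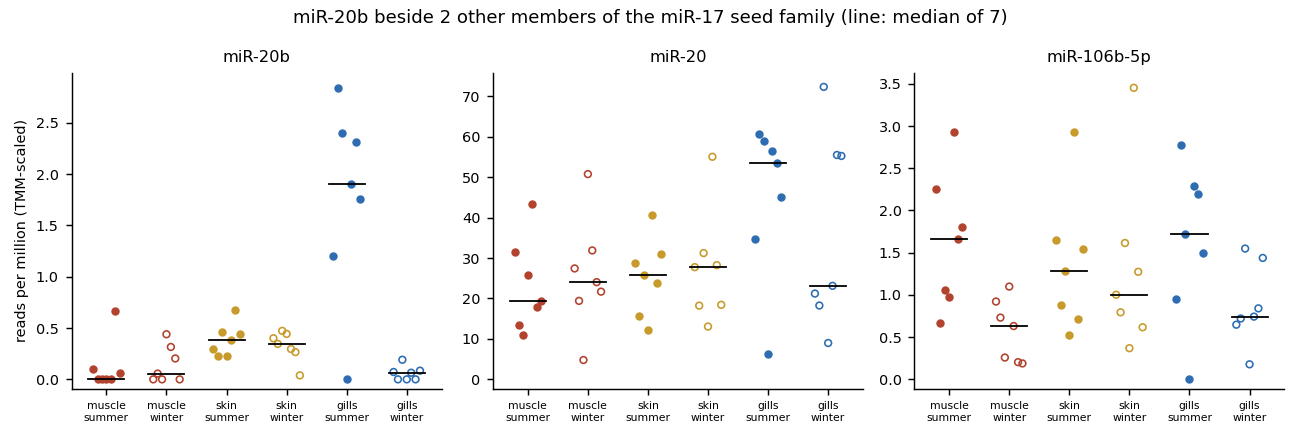
TMM-scaled CPM of miR-20b, miR-20 and miR-106b-5p in every library, with filled points for summer, open points for winter and a line at the median of 7. For miR-20b, 6 of 7 summer gill libraries lie at 1.21 to 2.84 CPM and the winter gill libraries at 0 to 0.191 CPM; the summer library at 0 is fish 4.

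The seasonal change of miR-20b was lower in skin than in gills by 4.20 ± 0.79 on the log2 scale (SE, edgeR adjusted p = 0.00182) and lower in muscle than in gills by 5.25 ± 1.13 (edgeR adjusted p = 0.00794). Both were past the threshold under each of the 4 scalings and with fish as a replicate block. These settings share the same reads and the same choice of name, so they remain a description. DESeq2 gave -4.17 (adjusted p = 1.28e-05) for skin and gills; for muscle and gills it gave -5.20 with an unadjusted p of 2.57e-06 and no adjusted p. Within gills alone miR-20b did not pass the filter on low counts, so it has no value there with the filter. Without that filter its log2 change was 4.39 ± 0.50 (20.9-fold, edgeR adjusted p = 7.63e-05). Without the low-total gill libraries it passed the filter, through summer gills, and the change was 4.44 ± 0.45 (edgeR adjusted p = 9.07e-05). Without winter fish 3, which held 9 of the 13 winter reads, the change was 5.16 (35.8-fold). These values within gills are a description as well.

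For its near relatives, miR-20 among them, no seasonal change passed the threshold in gills. Per 1000 reads of miR-20, miR-20b had 39.0 reads in summer gills and 2.18 in winter gills, 16.0 in summer skin and 12.4 in winter skin, and 2.67 in summer muscle and 4.58 in winter muscle. In gills the edgeR log2 change was 0.24 ± 0.42 for miR-20, 0.14 ± 0.51 for miR-106 and 0.87 ± 0.38 for miR-106b-5p (SE; adjusted p = 0.998, 0.998 and 0.57). In muscle miR-106b-5p had 0.670, 1.66 and 2.93 CPM in summer and 0.189, 0.631 and 1.10 CPM in winter (lowest, median, highest), and its 105 and 41 reads were too few for the filter. Without the filter its log2 change there was 1.49 (edgeR adjusted p = 0.047). The miR-106 value includes the low-total libraries. Blood cell markers in gills were at 693 to 1234 CPM in summer and 466 to 1208 CPM in winter for red cells. For white cells they were at 929 to 1229 CPM in summer and 777 to 1226 CPM in winter. Epithelial markers there were at 6410 to 16010 CPM in summer and 10860 to 17900 CPM in winter. The part of these cells in the miR-20b values was not tested.

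Blood and epithelial markers differed between the tissues too. The 2 red blood cell miRNAs summed to a median of 150 CPM in muscle, 83.7 CPM in skin and 925 CPM in gills, and the 4 white blood cell miRNAs to 41.4 CPM in muscle, 173 CPM in skin and 1039 CPM in gills. The order of the medians for white cells, and for the sum of the epithelial markers above, was that of miR-92, while red cells were lowest in skin. Of the epithelial markers only miR-205 had another order, with medians of 100 CPM in muscle, 5117 CPM in skin and 4122 CPM in gills. Not all members had the order of miR-92: by median miR-18 was lowest in skin, miR-19b highest in skin and miR-18b highest in muscle. By edgeR miR-142 fell by 2.83 ± 0.29 in muscle against gills and miR-451 by 2.35 ± 0.23, adjusted p = 4.90e-12 and 1.31e-12. The part of blood or epithelial cells in the tissue differences of the members was not tested.

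Numbers of seed relatives outside the rule, miR-130, miR-301, miR-430 and miR-454, gave 48 names with all arms, of which 17 were tested. Passenger names such as miR-130a-5p, miR-130b-5p and miR-301b-5p are among those tested, and that arm has another seed. For miR-454 only miR-454-5p was listed, with 0 reads. Names also share reads: miR-130, miR-130a and miR-130d-3p had 171142 each. The counts below are therefore of names, not of separate seed relatives. In muscle against gills 8 rose and 0 fell (47.1%, beside 76.6% of all names), in skin against gills 6 rose and 0 fell (35.3%, beside 54.5%), and in muscle against skin 1 rose (5.88%, beside 67%). The most abundant, miR-130a-3p, whose seed is that of miR-301 and lies a base apart from that of miR-19, had 163, 321 and 452 CPM in muscle (lowest, median, highest), 218, 291 and 358 CPM in skin, and 66.0, 99.8 and 165 CPM in gills. It rose by 1.53 ± 0.15 in muscle against gills (edgeR adjusted p = 1.04e-12) and by 1.43 ± 0.15 in skin against gills (edgeR adjusted p = 1.57e-11), though with library totals alone the muscle and gills change was -1.90. The log2 change of miR-301a-3p was -0.24 ± 0.29 for muscle minus gills (edgeR adjusted p = 0.46), and -0.59 with fish as a replicate block (edgeR adjusted p = 0.0364). The miR-430 family, which clears maternal transcripts in zebrafish embryos, had a read under 3 of its names, the highest being miR-430f-3p with 672.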

How the data were processed

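Small RNA libraries of muscle, skin and gills were made with the TruSeq Small RNA kit from gel-selected RNA, sequenced in pairs, of which the submitters kept read 1, per the labels' protocols. The deposited tables hold whole-number read counts per mature miRNA and precursor, not normalized, per the file headers, in the layout of the miRDeep2 quantifier. CPM values scaled by the authors stand in the same deposited tables and were not used. The aligner, the miRNA release and the filters were not given in the sources used here. No sequence and no genome were used here.

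Names were stripped of the prefixes of 13 species, and the entry with the highest count per name and library was kept, giving 1342 names. The counts went into edgeR 4.0.16 (R 4.3.3) with a filterByExpr filter (minimum count 10, minimum total 15), TMM scaling, the quasi-likelihood F test and Benjamini-Hochberg adjusted p under 0.05 over all names tested. Tissue contrasts and interactions used 42 libraries in 6 groups, averaged over seasons for tissues, and seasons used the 14 libraries of a tissue. Log2 changes are the first group minus the second, with standard errors (SE). Ratios used counts plus 0.5 and two-sided exact permutation tests in Python 3.11.15. Calculations were tested on simulated data. Alternatives were library totals, DESeq2 1.42.0 and its size factors, totals without the miR-10 family, no filter, another entry per name, 1 name per read profile, left-out libraries and a replicate block.

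Statistics are printed for the guide-arm and the passenger-arm name with the most reads of each number, where tested; further names were chosen after their values were seen. The members and lists were chosen with earlier results of these data known. All 126 pairs of libraries within groups differed beyond sampling noise (0 identical). Reads carry no molecular identifiers, so limits from counts cover counting error only. The tissues come from the same fish, and the exact ratio tests between tissues used this pairing, but the main edgeR tissue fits did not. With fish as a replicate block, edgeR called 21 of 38 members in muscle against gills (55.3%, beside 77% of all names). It called 14 in muscle against skin (36.8%, beside 69%) and 9 in skin against gills (23.7%, beside 53.9%). A batch label from 1 to 7 equals the fish number in both seasons and was treated as pairing them because the label calls it a batch. Deviations of same-numbered summer and winter libraries correlated over 0.1 in 4 of 7 pairs in muscle, 5 in skin and 4 in gills. The median correlation was 0.12 in muscle, 0.74 in skin and 0.68 in gills, and the main seasonal fits did not use this number. For tissues of the same fish the median was 0.11 for skin and gills, 0.10 for muscle and gills and 0.12 for muscle and skin. Over 0.1 were 7, 7 and 8 of 14 such pairs. Each library is a separate biological sample, per the series' design text.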

Additional observations from a re-analysis of the deposited data

Results flagged for a closer look

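The gill library of summer fish 4, the one with the lowest summed count, stood apart from the other 6 of its group for several members. It was the lowest for miR-17 at 3.63 CPM, for miR-20 at 6.36 CPM, for miR-106 at 0 CPM and for miR-18 at 1.82 CPM. It was also the highest for the log2 ratio of miR-18 over miR-17, at -0.85, and of miR-19b over miR-17, at 5.33. The muscle library of winter fish 3 was the lowest of its group for miR-20 at 4.78 CPM and for miR-93 at 1.16 CPM, and the highest for the log2 ratio of miR-92 over miR-17 at 5.67. The skin library of winter fish 5 was the highest of its group for miR-93, at 29.3 CPM. In all, 72 groups of 7 were examined and 10 extreme values were found; chance alone gives about 1 in 20 groups.

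The seasonal change of miR-20b was flagged by the interaction test between tissues. It met the filter on low counts largely through summer gills, the group where it is high, and was named after its values were seen. The values are therefore a description only. The difference was -4.20 for skin minus gills and -5.25 for muscle minus gills, and for miR-20b-5p, the same reads, -3.99 and -4.23.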

How the results depend on the processing

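Among the counts of members called, 38 were lower in skin than in gills with library totals only (beside 83.4% of all names), 2 with totals without the miR-10 family (50%), 1 with 1 name per read profile (54.6%) and 25 without the low-total gill libraries (59.8%). In muscle against gills 12 were called with 1 name per profile (74.9%), and in muscle against skin 37 with totals only (90.7%). By season, gills gave 2 without the filter (0.919%) and 2 without the low-total libraries (0.857%), all miR-20b names. Skin gave 2 with DESeq2 (1.47%). Muscle gave 3 with totals only (21.5%), 9 with totals without the miR-10 family (33.3%) and 1 without the filter (9.11%). Of the interactions, skin against gills gave 1 (1.03%) and muscle against gills 1 (2.06%) with 1 name per profile, since miR-20b and miR-20b-5p share 1 profile. With DESeq2 muscle against gills gave 0 (4.83%), with no adjusted p for miR-20b. Muscle against skin gave 2 with totals only (17.7%). Leaving out 1 fish or library gave 7 to 22 in skin against gills, 12 to 21 in muscle against skin and 0 to 2 for gills by season.

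Directions turned with totals only for miR-19b (-1.05) and miR-25-3-5p (-0.84) in skin against gills, miR-18 (-1.93) in muscle against skin, miR-106 (-0.0172) by season in gills, miR-18 (0.26), miR-19a-5p (0.22), miR-20 (0.27) and miR-92 (0.0315) by season in skin, and miR-25 (-0.30) and miR-93 (-0.46) by season in muscle. With totals without the miR-10 family they turned by season for miR-25 in gills (0.0322) and for miR-25 (-0.21) and miR-93 (-0.40) in muscle. None of these values was past the threshold with TMM scaling, but the list covers the representative names only. In muscle against gills miR-18b (2.23) and the seed relative miR-130a-3p (1.53) were past it with TMM scaling. Both turned to lower in muscle with totals only, as given above.

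Without the low-total gill libraries, miR-19b turned to -0.027 in skin against gills, and of the log2 ratios miR-18 over miR-17 turned to -0.10 and miR-19b over miR-17 to -0.39 by season in gills. There miR-19b over miR-17 passed in skin against gills at 0.59 (exact adjusted p = 0.0469), and miR-92 over miR-17 missed in muscle against gills at -1.68.

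With the replicate block, paired by batch number, miR-25 over miR-92 stayed at 0.89 by season in muscle but missed the threshold, and miR-25 by season in gills turned to 0.0028. Fish as a block for the interactions was an alternative chosen after seeing the data. The block moved no count of members called by over 1.5 times; over all names it gave 8 by season in skin, against 3 without it, and 2 in gills, against 1.

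Leaving out 1 fish or library, the log2 changes that turned ranged as follows. In skin against gills miR-19b ran from -0.0039 to 0.16. By season in gills miR-25 ran from -0.14 to 0.21 and miR-25-3-5p from -0.12 to 0.37. By season in skin miR-106 ran from -0.13 to 0.17, miR-17 from -0.11 to 0.20, miR-18 from -0.23 to 0.12, miR-19b from -0.0048 to 0.21, miR-20 from -0.25 to 0.13 and miR-93 from -0.17 to 0.30. By season in muscle miR-106 ran from -0.30 to 0.13, miR-17 from -0.38 to 0.10, miR-19b from -0.39 to 0.10, miR-20 from -0.45 to 0.14 and miR-93 from -0.17 to 0.30. Leaving out each fish for the ratios was chosen after seeing the data: miR-92 over miR-17 ran from -2.19 to -1.56 in muscle against gills and from -1.83 to -1.34 in muscle against skin, and miR-25 over miR-92 by season in muscle from 0.70 to 1.00. The causes were not tested. Depth limits the passenger names, miR-18b and miR-20b, which rest on few reads.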
